A study of Mus musculus with 6 samples.

Results

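The odorant receptor genes of the mouse, named Olfr on the arrays used here, were represented by 19838 of the 474380 non-control probes of a pair of promoter arrays. A probe was counted as Olfr when its gene symbol in the annotation carried by the Dnmt1-KO scan files began with Olfr. These probes covered 875 gene symbols on 17 chromosomes, with 10078 probes on array design 1 and 9760 on array design 2. A gene had between 1 and 49 probes, with a median of 24, and 818 genes had at least 6 probes. After removal of 12 probes with an outlier flag, 19826 remained. The choice of members used the annotation and no measured value.

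Odorant receptors are G-protein-coupled receptors of olfactory sensory neurons, and each mature neuron expresses 1 allele of 1 receptor gene. The genes have an intronless coding exon and lie in large clusters, which are transcriptionally silent outside the olfactory lineage. In olfactory neurons the silent receptor genes carry histone marks of constitutive heterochromatin, and receptor promoters are known to be rich in A and T and poor in CpG dinucleotides. Rybp belongs to the variant forms of Polycomb repressive complex 1 (PRC1), which are found mainly at CpG islands. Eed is essential to the Polycomb complex PRC2 that places methyl groups on lysine 27 of histone H3, and Dnmt1 maintains DNA methylation through replication.

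Rybp occupancy was measured by chromatin immunoprecipitation and microarray hybridisation (ChIP-chip) in embryonic stem (ES) cells of the mouse. The 3 genotypes were wild type (WT), constitutive Eed knockout (Eed-KO) and constitutive Dnmt1 knockout (Dnmt1-KO), with no treatment other than formaldehyde fixation. Alleles, clones and strains are not given in the labels, and which cultures had irradiated embryonic fibroblasts as feeders and which grew on gelatin is not said. Immunoprecipitated (IP) DNA carried Cy5 and input DNA of the same cells carried Cy3. Each genotype had 1 array of each of the 2 designs, 6 arrays in all, and the designs hold different probes, so there were no replicates. No p-value was computed, and the errors given are spreads over probes or genes.

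The Rybp level of a probe is log2 of IP over input signal, centred on the median of the array. Thus 0 is the level of the middle probe, and 1 is an IP over input ratio 2-fold that of the middle probe. The Dnmt1-KO arrays were read with another scanner and another extraction version than the WT and Eed-KO arrays, so genotype and scan cannot be told apart there. The SD of the level over all probes of an array was 0.41 and 0.42 in WT, 0.45 and 0.47 in Eed-KO, and 0.96 and 0.91 in Dnmt1-KO. Both channels were well above background at 99.8% of Olfr probes in WT and in Eed-KO, but at 44.5% in Dnmt1-KO, where 84.6% of the other probes passed. The flag itself was set at different multiples of the background spread in the 2 extraction versions.

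The sequences show what the receptor regions are made of. The following array probes are those of the 5 highest Olfr probes in WT that had a neighbouring probe of the same gene, within 500 bp, at a level of 0.5 or more. They are followed by the highest WT probe of all, in Olfr1186, and by an ordinary probe at the Olfr median, in Olfr1201. CpG dinucleotides are in capitals, and the sequences are those of the array design.
Olfr94 probe, 194 bases after the start: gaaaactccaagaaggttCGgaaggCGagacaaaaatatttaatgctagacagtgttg
Olfr94 probe, 635 bases after the start: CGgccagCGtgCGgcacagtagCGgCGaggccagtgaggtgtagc
Olfr234 probe, 239 bases after the start: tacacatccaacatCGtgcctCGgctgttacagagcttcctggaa
Olfr310 probe, 323 bases before the start: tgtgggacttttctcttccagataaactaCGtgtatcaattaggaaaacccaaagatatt
Olfr1029 probe, 2439 bases before the start: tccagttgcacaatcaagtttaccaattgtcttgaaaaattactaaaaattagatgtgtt
Olfr1186 probe, 1616 bases before the start: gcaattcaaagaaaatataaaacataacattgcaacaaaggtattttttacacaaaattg
Olfr1201 probe, 747 bases before the start: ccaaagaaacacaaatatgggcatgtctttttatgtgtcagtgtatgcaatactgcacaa

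The probes of Olfr94 hold 2 and 5 CpG and that of Olfr234 holds 2, whereas the probes of Olfr1029, Olfr1186 and Olfr1201 hold 0. In the coordinates of the array annotation, for which no label or header names a genome build, the Olfr94 probes lie at chr17:36805797-36805854 and chr17:36805362-36805406. The Olfr234 probe lies at chr15:98325724-98325768, and all 3 are annotated inside the gene. The probes of Olfr310 (chr7:86145842-86145901), Olfr1029 (chr2:85773615-85773674) and Olfr1186 (chr2:88324778-88324837) are annotated to the promoter.

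RefSeq promoter entries (GRCm38.p6, 250 bases before to 50 after the start) matched 717 of the 875 symbols. They are shown here for Olfr94, for Olfr913, among the genes with the lowest WT level, and for Lhx2, a homeobox factor needed to form olfactory neurons. The Olfr94 entry is chr17:37197917-37198216 on the minus strand, the Olfr913 entry chr9:38592553-38592852 on the plus strand, and the Lhx2 entry chr2:38339031-38339330 on the plus strand, with CpG again in capitals.
Olfr94 promoter: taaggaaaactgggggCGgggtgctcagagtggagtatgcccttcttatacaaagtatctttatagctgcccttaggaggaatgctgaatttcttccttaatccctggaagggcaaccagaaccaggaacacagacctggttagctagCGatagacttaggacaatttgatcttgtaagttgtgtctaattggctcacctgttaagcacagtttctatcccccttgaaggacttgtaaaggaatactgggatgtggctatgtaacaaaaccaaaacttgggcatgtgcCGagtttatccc
Olfr913 promoter: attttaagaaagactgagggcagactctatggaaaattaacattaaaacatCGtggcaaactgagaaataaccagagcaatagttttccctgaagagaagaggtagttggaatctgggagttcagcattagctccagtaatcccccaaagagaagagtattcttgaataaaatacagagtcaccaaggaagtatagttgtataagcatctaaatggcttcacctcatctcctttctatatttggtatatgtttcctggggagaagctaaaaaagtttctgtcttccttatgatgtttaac
Lhx2 promoter: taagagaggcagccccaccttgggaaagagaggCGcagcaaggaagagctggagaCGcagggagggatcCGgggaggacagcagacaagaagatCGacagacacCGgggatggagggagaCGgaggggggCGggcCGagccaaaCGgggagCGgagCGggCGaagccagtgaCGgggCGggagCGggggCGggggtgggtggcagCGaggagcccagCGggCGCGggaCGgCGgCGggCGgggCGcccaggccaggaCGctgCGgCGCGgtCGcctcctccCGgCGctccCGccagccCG

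The entries hold 3, 1 and 34 CpG, with a GC content of 45%, 37% and 74.7%. Over the 719 Olfr entries the median was 1 CpG and 35.3% GC, and 32.3% held no CpG. Over all 32851 promoter entries the median was 7 CpG and 52.7% GC, and 5.43% held none. Only 2 Olfr entries (0.278%) held 10 or more CpG, against 43.5% of all entries. The start codon ATG stood exactly at the listed start in 526 Olfr entries (73.2%) and in 5.83% of all entries, so for most receptors the listed start is that of the coding sequence.

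Rybp levels at the receptors lay below the array median in all 3 genotypes. The median over the 19826 Olfr probes was -0.17 in WT (SD over probes 0.30), -0.21 in Eed-KO (SD 0.35) and -0.53 in Dnmt1-KO (SD 0.64), against 0.01, 0.01 and 0.03 at the 454221 other probes. A level above 0 was found at 24.9%, 24.3% and 14.3% of Olfr probes, and at 51.1%, 51.1% and 51.6% of the others. The 2 array designs, which share no probe, gave nearly the same Olfr medians in WT, -0.17 on both, and in Eed-KO, -0.22 and -0.21. In Dnmt1-KO they gave -0.57 and -0.50. The order of the genotypes was the same on both designs.

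**Figure D1:**
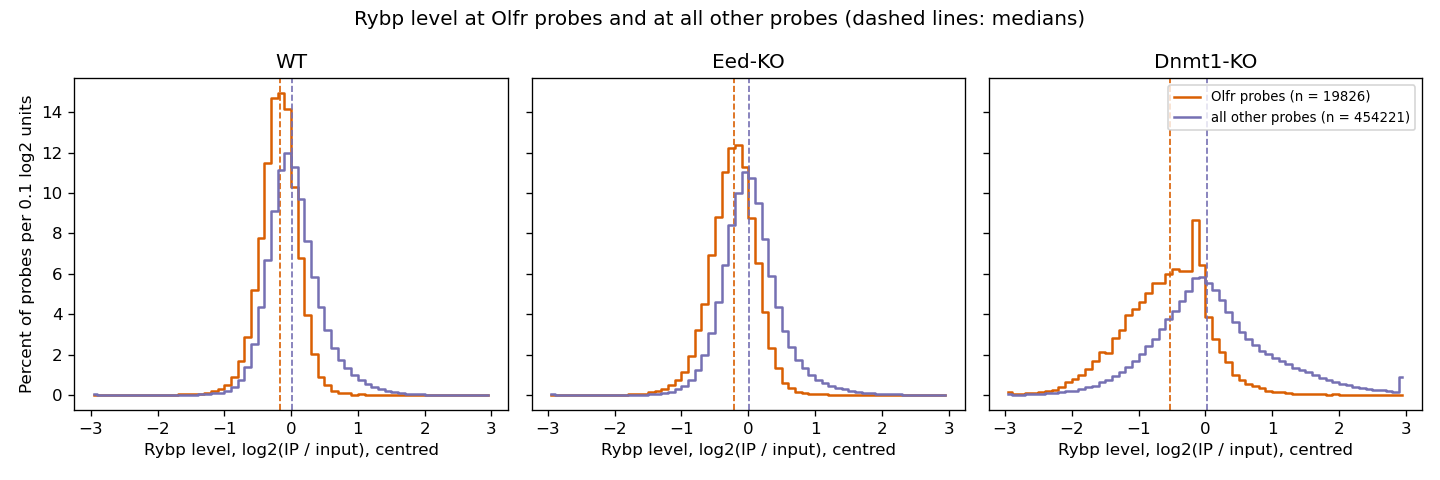
Percent of probes (y axis) per 0.1 log2 units of Rybp level (x axis) for Olfr probes and all other probes in each genotype, with levels beyond 3 drawn in the end bins and dashed lines at the medians. The Olfr curve lies to the left of the other curve in all 3 panels, with medians of -0.17, -0.21 and -0.53, and both curves are broader in Dnmt1-KO, where the narrow Olfr peak between -0.2 and -0.1 holds 1722 probes.

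Few receptor probes were enriched. A level of at least 1 was reached by 14 Olfr probes in WT, where 2.59% of all probes reached it, by 17 in Eed-KO (3.13% of all probes) and by 134 in Dnmt1-KO (15.2% of all probes). The Olfr shares were 0.0706%, 0.0857% and 0.676%. On the low side, a level of -1 or less was found at 174 Olfr probes in WT (0.412% of all probes), 416 in Eed-KO (0.87%) and 5024 in Dnmt1-KO (9.33%). Low probes outnumbered high ones among the receptors in each genotype. These counts follow the threshold and the centring closely, and in WT they ran from 1 at 3-fold to 115 at 1.5-fold.

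Of the 14 WT probes at 1 or more, 5 had a neighbour at 0.5 or more and 8 held no CpG. The input signal was low at most of them. Relative to the array median on the log2 scale, it was -2 or less at 10 of the 14 (71.4%), against 2.19% of all Olfr probes in WT. The 4 probes with a higher input were both Olfr94 probes, the Olfr234 probe and 1 probe of Olfr153. A surrogate value, put by the scanner software in place of a signal too close to background, stood in the WT signals of 3 of the 14, and 8 of the 14 had none on any array. Only 3 of the 14 also reached 1 in Eed-KO, and 2 in Dnmt1-KO. The Olfr1186 probe, highest in WT at 1.64, read -0.60 in Eed-KO and -1.21 in Dnmt1-KO, and its best WT neighbour was at 0.06. The Olfr310 probe fell from 1.17 in WT to 0.24 and -0.30, and the Olfr1029 probe from 1.19 to 0.48 and -0.16. The higher of the Olfr94 probes was at 1.58, 1.97 and 2.32, high on each of its 3 arrays.

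Part of the distance from other promoters went with base composition. Olfr probes had a median GC content of 36.7%, against 40.7% elsewhere, and 79.0% held no CpG, against 56.3%. The level rose with GC content in both groups, and among all probes its correlation with GC was 0.30 and 0.29 on the WT arrays and 0.45 and 0.44 on the Dnmt1-KO arrays. At 35 to 40% GC, which holds 9594 Olfr probes, the Olfr median was -0.16 in WT, -0.19 in Eed-KO and -0.55 in Dnmt1-KO, and the other median -0.04, -0.05 and -0.16. At 50 to 55% GC the Olfr medians were -0.01, 0.00 and -0.03 over 199 probes, below 0.12, 0.12 and 0.38 elsewhere. After removal of each array's trend with GC, the Olfr medians were -0.09, -0.11 and -0.30, so a gap to the other probes at 0.00, 0.01 and 0.01 remained in each genotype.

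**Figure D2:**
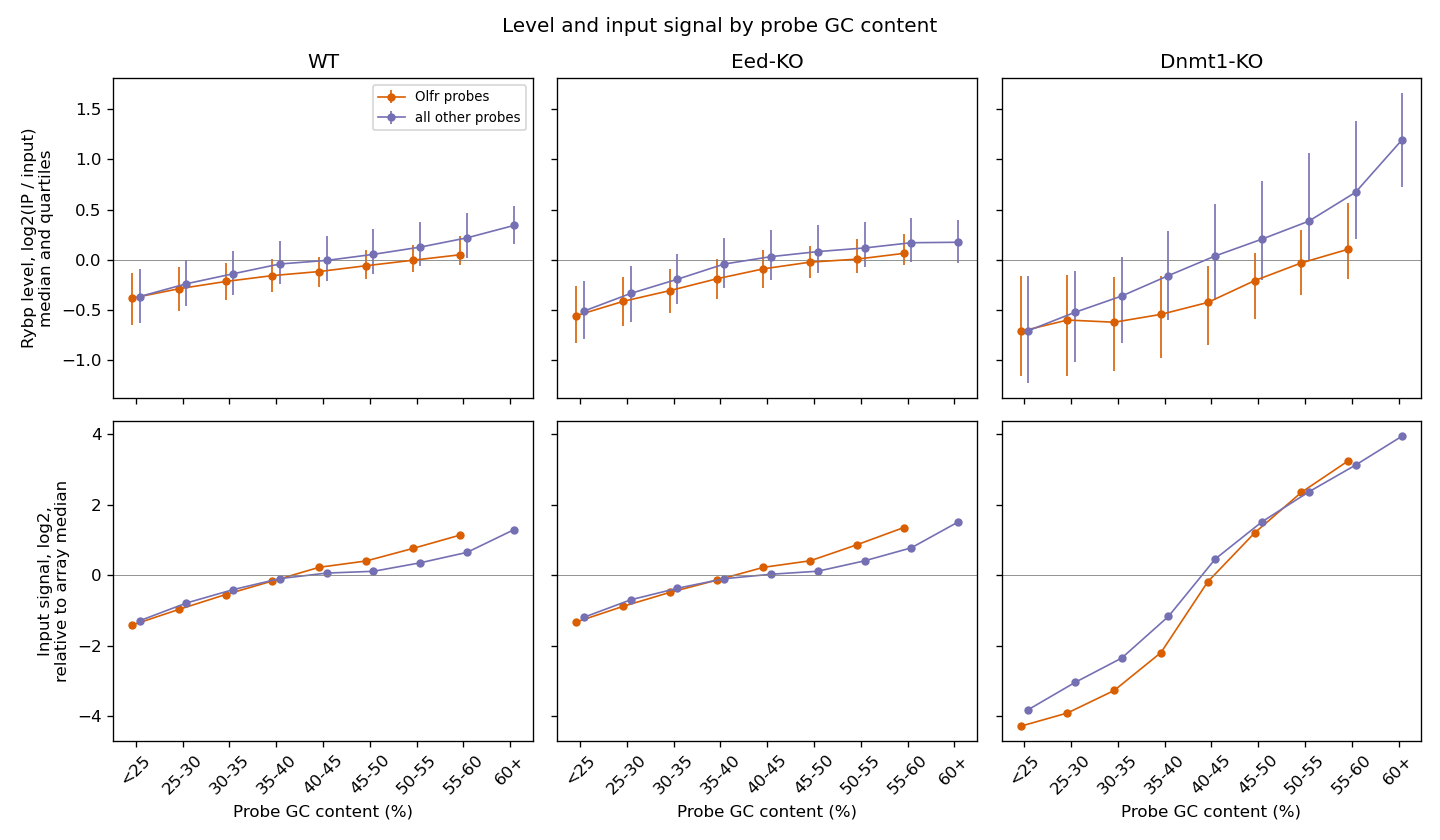
Rybp level (upper row, median with quartile bars) and input signal relative to the array median (lower row, medians), both on the log2 scale, by probe GC content in percent, for Olfr and all other probes in each genotype. Both rise with GC content, the Olfr level lies below the other level at 35 to 40% GC (-0.16 against -0.04 in WT), and the input trend is steepest in Dnmt1-KO.

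The number of CpG in an Olfr probe went with its level. The 15661 probes without CpG had medians of -0.18, -0.23 and -0.54 in WT, Eed-KO and Dnmt1-KO, and the 462 probes with 2 CpG had -0.09, -0.09 and -0.45. The 38 probes with 3 had 0.02, -0.07 and -0.13. With 1 CpG, 3659 probes had -0.14, -0.18 and -0.52, so in Dnmt1-KO they lay close to those without CpG. Median GC content rose alongside, from 35% without CpG to 36.7%, 38.3% and 40.7% with 1, 2 and 3. CpG number and GC content were not separated. A corresponding order held over genes when grouped by the CpG count of the RefSeq promoter and measured by their mean within 500 bp of the start. It ran from -0.15, -0.19 and -0.73 in 152 genes without CpG, through -0.13, -0.09 and -0.69 in 247 genes with 1 or 2 and -0.09, -0.07 and -0.57 in 71 genes with 3 to 5, to 0.10, 0.19 and 0.32 in 10 genes with 6 or more. The last group was mixed. Olfr1349 (6 CpG) was at 0.22, 0.56 and 1.59 and Olfr750 (11 CpG) at 0.22, 0.60 and 0.94, whereas Olfr187 (6 CpG) was at -0.33, -0.36 and -0.90.

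The signals of the 2 channels show where these ratios come from. Relative to the array median on the log2 scale, the input signal of Olfr probes had a median of -0.27 in WT, -0.24 in Eed-KO and -2.39 in Dnmt1-KO. The IP signal was lower again, at -0.49, -0.51 and -3.10. The Dnmt1-KO input itself followed GC content far more closely than the WT input, with correlations over all probes of 0.71 and 0.72 against 0.40 and 0.43. In Dnmt1-KO the Olfr input thus lay over 2 log2 units below the array median before any antibody was involved, and both signals of many receptors lay close to background. At the Olfr probes well above background in both channels of the Dnmt1-KO array, the median level was -0.38. Whether the dimmer hybridisation set the lower Olfr level in Dnmt1-KO was not tested.

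Surrogate values stood in either channel at 0.171% of Olfr probes in WT, 0.177% in Eed-KO and 17.6% in Dnmt1-KO, and at 0.134%, 0.0929% and 2.42% of other probes. At the 993 Olfr probes with surrogates in both channels of the Dnmt1-KO array, the level had a median of -0.11, so the level there is a ratio of 2 substituted values. Of the 1722 Olfr probes in the narrow peak of the Dnmt1-KO distribution between -0.2 and -0.1, 616 were of this kind. At the 16314 Olfr probes without a surrogate on any array the Dnmt1-KO median was -0.53, as at all Olfr probes.

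Along the genes, receptor levels stayed below the array median at every distance from the start. Upstream of the start, the Olfr median in WT stayed between -0.19 and -0.16 in every distance class out to 5 kb. In the first 500 bp after the start it was -0.08 in WT, -0.02 in Eed-KO and -0.66 in Dnmt1-KO, against 0.27, 0.18 and 0.90 at other genes. The Olfr median thus rose after the start in WT and Eed-KO, and fell in Dnmt1-KO, where coding exon probes begin. In the 500 bp before the start it had been -0.16, -0.19 and -0.55, and that of other genes 0.18, 0.11 and 0.68. The 2278 Olfr probes annotated inside the gene had medians of -0.11, -0.07 and -0.62, and the 14055 promoter probes -0.18, -0.23 and -0.52, with a median GC content of 38.8% and 35%. At 35 to 40% GC the levels lay closer in WT, at -0.13 inside the gene and -0.16 at promoter probes, and were -0.72 and -0.53 in Dnmt1-KO. In the same GC range the WT input was 0.16 at probes inside the gene and -0.20 at promoter probes. Probes that share 20 or more bases with another probe made up 1.31% of Olfr probes, and leaving them out changed no Olfr median by more than 0.01.

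**Figure D3:**
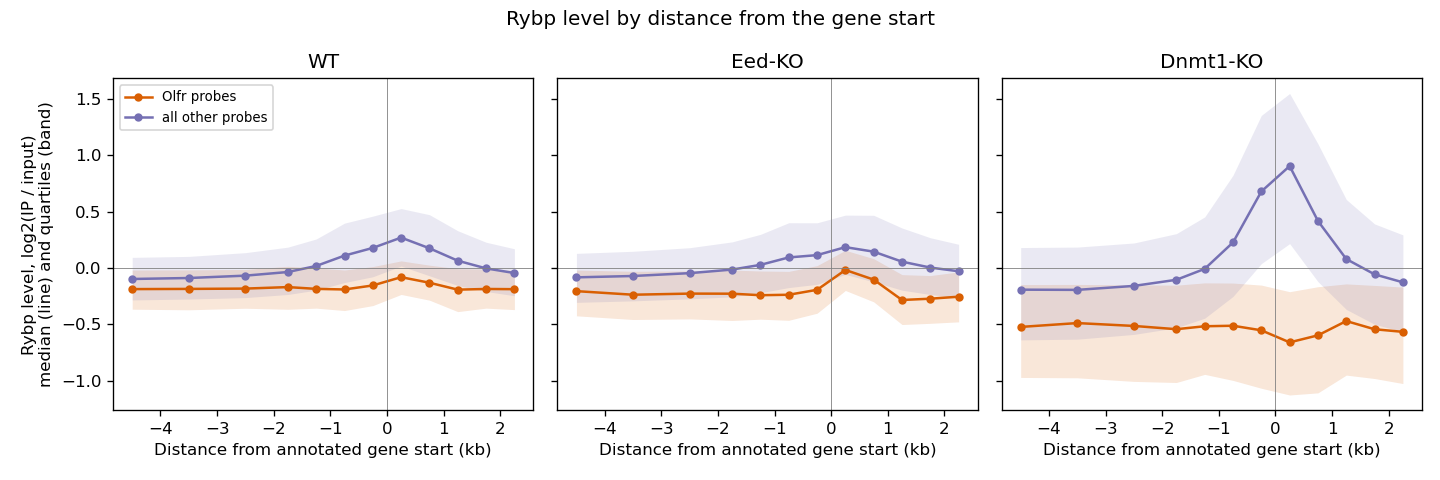
Median Rybp level (lines) with quartiles (bands), on the log2 scale, against distance from the annotated gene start in kb, for Olfr and all other probes in each genotype. Other probes peak just after the start, at 0.27, 0.18 and 0.90 in WT, Eed-KO and Dnmt1-KO, and Olfr probes stay below 0 throughout.

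All 12 chromosomes with at least 20 receptor genes had an Olfr median below that of the other probes on the same chromosome, in each genotype. Their Olfr medians ran from -0.22 to -0.11 in WT, from -0.28 to -0.12 in Eed-KO and from -0.63 to -0.38 in Dnmt1-KO. Chromosome 15, with 7 genes and 159 probes, stood apart at 0.04, 0.06 and -0.18. It carries Olfr234 and Olfr285, the receptors with the highest and the fifth highest WT gene mean. On the X chromosome, with 6 genes, the Olfr level was -0.12, -0.12 and -0.47, and the input was -0.92 in WT and -0.54 in Eed-KO, against -0.80 and -0.69 at the other X probes. The median input difference, Eed-KO minus WT, was 0.42 at the X receptors and 0.11 at the other X probes.

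Receptor probes formed 48 clusters when gaps of up to 1 Mb were bridged, and 13 clusters with at least 20 genes held 654 genes and 14490 probes. Cluster medians ran from -0.24 to -0.08 in WT, from -0.30 to -0.07 in Eed-KO and from -0.67 to -0.37 in Dnmt1-KO. The lowest in WT and Dnmt1-KO was the cluster of 30 genes at chr9:18503508-20053056, at -0.24, -0.29 and -0.67, and the highest in each genotype was that of 22 genes at chr11:58271342-59431456, at -0.08, -0.07 and -0.37. Median GC content was 35% in the former and 38.1% in the latter. The cluster of 76 genes at chr7:102349550-105216709, which holds the class I receptors related to those of fish, was at -0.16, -0.20 and -0.57. The neighbouring cluster of 57 genes at chr7:106469762-108690889 was at -0.18, -0.25 and -0.55. The largest clusters, of 99 genes on chromosome 2 and 98 on chromosome 9, were at -0.21 and -0.19 in WT. The quartiles of all 13 clusters overlapped.

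**Figure D4:**
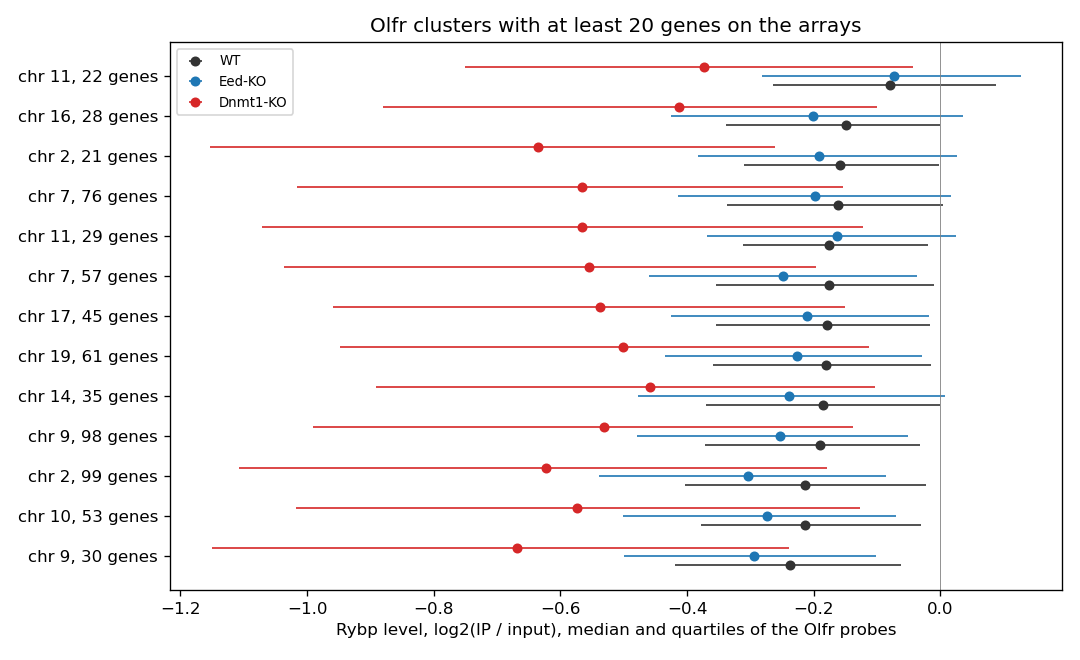
Median Rybp level with quartile bars (x axis, log2 scale) of the Olfr probes in each of the 13 clusters with at least 20 genes (y axis, chromosome and gene count), in the 3 genotypes. Every median lies below 0, WT medians span -0.24 to -0.08, and Dnmt1-KO lies to the left of WT in each cluster.

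Genes of other kinds that lie among the receptors were nearer to the array median. Their 3817 probes inside the Olfr clusters had medians of -0.04, -0.05 and -0.15, with a median GC content of 38.9%. Other chemoreceptor families differed in how near they came to the odorant receptors. V1r vomeronasal receptors, which detect pheromones, were at -0.19, -0.22 and -0.62 (2043 probes), and Tas2r bitter taste receptors at -0.15, -0.18 and -0.57 (827 probes). Trace amine-associated receptors (Taar), another receptor family of olfactory neurons, were at -0.08, -0.11 and -0.34 (358 probes). The V2r vomeronasal receptors had only 18 probes, at 0.06, -0.16 and -0.83. The Krtap genes, clustered genes for hair keratin-associated proteins, were at -0.09, -0.17 and -0.39 (505 probes). The Hox genes, classical Polycomb targets, were at 0.63, 0.51 and 0.67 (1299 probes). With the GC trend removed, V1r was at -0.09, -0.09 and -0.35 and Tas2r at -0.07, -0.08 and -0.32, close to the -0.09, -0.11 and -0.30 of the odorant receptors. Taar was nearer to 0, at -0.03, -0.02 and -0.18, and so was Krtap, at -0.01, -0.07 and -0.23.

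Receptor levels varied little from gene to gene. Over the 818 genes with at least 6 probes, the gene mean had a median of -0.19 in WT (SD over genes 0.09), -0.24 in Eed-KO (SD 0.14) and -0.61 in Dnmt1-KO (SD 0.23). Among other genes the SD in WT was 0.21. A mean above 0 was found in 20 receptor genes in WT (48% of all genes), 40 in Eed-KO (45.8%) and 17 in Dnmt1-KO (56.6%), and no receptor gene reached 0.5 in any genotype. Neighbouring probes also shared little. The correlation of a probe with the next probe of its gene was 0.21 in WT over 17129 Olfr pairs and 0.57 over other pairs. At the same probe, WT and Eed-KO levels correlated at 0.47 for Olfr and 0.74 for other probes, and WT and Dnmt1-KO levels at 0.07 and 0.52. These are descriptions over probes, which share arrays and base composition and are not replicates.

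Olfr94 and Olfr234 were the receptors with the highest WT gene means. Olfr94 belongs to the receptor cluster beside the major histocompatibility complex on chromosome 17. Its 34 probes had means of 0.19 in WT (SD 0.49), 0.39 in Eed-KO (SD 0.56) and 0.42 in Dnmt1-KO (SD 0.83). The enrichment was local. All 13 probes from 310 bases before to 1526 bases after the start lay above 0 in each genotype, with means of 0.70, 0.93 and 1.23, and these probes held 19 CpG. The 21 probes from 1048 to 4676 bases upstream had means of -0.13, 0.05 and -0.09, and held 12 CpG. Mean GC content was 47.7% at the 13 probes and 38.0% at the 21. In WT the highest of these upstream probes, 0.22, just met the lowest of the 13 probes at the start, 0.22. In Eed-KO and Dnmt1-KO the highest upstream probes, 0.67 and 1.02, passed the lowest at the start, 0.35 and 0.53. Above 0 were 6, 11 and 8 of the 21 upstream probes in WT, Eed-KO and Dnmt1-KO.

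A window was the run of 6 neighbouring probes of a gene, within 3 kb, whose mean over the 3 genotypes was highest. The Olfr94 window, chr17:36805362-36806237, which spans the annotated start and holds 10 CpG, was at 0.91, 1.07 and 1.51, the highest receptor window in WT and Eed-KO. The signal continued past the last Olfr94 probe. The nearest probe assigned to Ubd, the gene of a ubiquitin-like modifier, was at 0.42, 0.77 and 1.26, whereas the 34 probes of Ubd had means of -0.09, -0.02 and -0.63. The region around the annotated start of Olfr94 thus lay above the array median in all 3 genotypes. The gene was named for its WT mean and the window was picked by its mean over the 3 genotypes. Its high levels are therefore partly set by that choice.

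Olfr234, on chromosome 15, had 20 probes with means of 0.22 in WT (SD 0.40), 0.15 in Eed-KO (SD 0.56) and -0.23 in Dnmt1-KO (SD 0.59). Its window, chr15:98324227-98325995 with 7 CpG, was at 0.56 in WT (SD 0.34), 0.63 in Eed-KO (SD 0.38) and -0.19 in Dnmt1-KO (SD 0.23). The 3 probes at 111, 239 and 466 bases after the start were at 0.66, 1.02 and 0.86 in WT and at 0.95, 1.16 and 0.53 in Eed-KO. In Dnmt1-KO the same probes were at -0.32, 0.10 and 0.02. The next probe, 983 bases after the start, was low in all 3, at -0.63, -1.10 and -2.11. Here 18 of the 20 probes were well above background in both channels in Dnmt1-KO. The reason for the lower Dnmt1-KO level of Olfr234 was not tested.

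**Figure D5:**
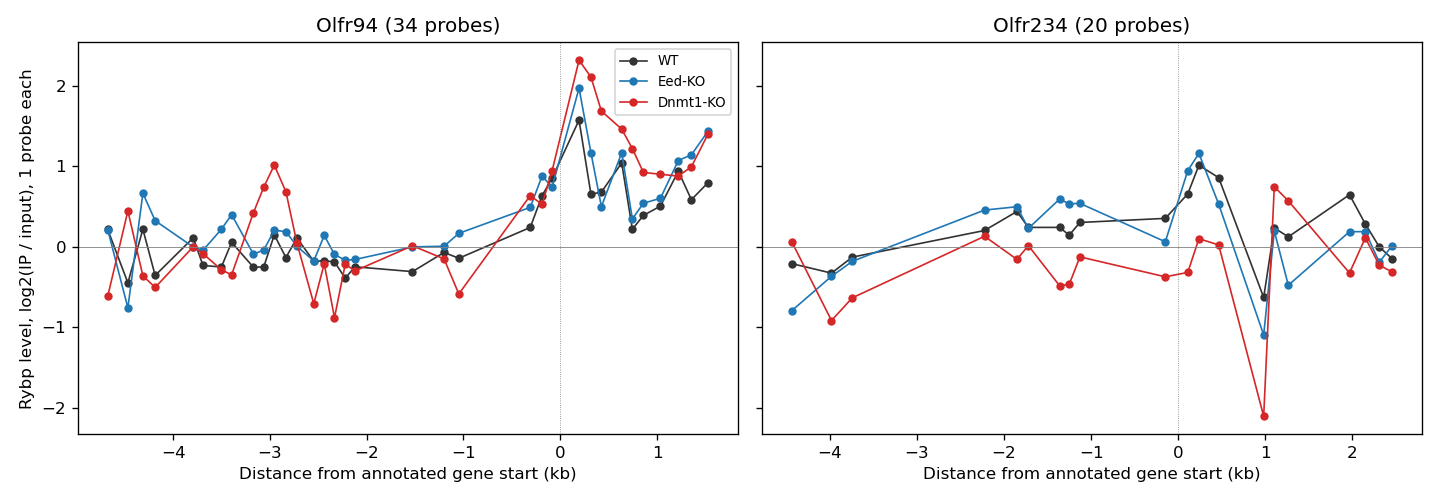
Rybp level of each probe (points joined by lines, log2 scale) against distance from the annotated gene start in kb for Olfr94 and Olfr234 in the 3 genotypes. Around the start of Olfr94 all 3 lines lie above 0. At 239 bases after the start of Olfr234, WT and Eed-KO reach 1.02 and 1.16, and Dnmt1-KO is at 0.10.

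The next highest receptors in WT were near 0. Olfr314 was at 0.10 (SD 0.30, 42 probes), 0.11 and -0.19, Olfr1342 at 0.07 (SD 0.32, 24 probes), -0.07 and 0.29, and Olfr285 at 0.06 (SD 0.19, 10 probes), 0.02 and -0.31. The lowest were Olfr583 at -0.53 (SD 0.50, 6 probes), -1.09 and -0.65, Olfr913 at -0.51 (SD 0.75, 28 probes), -0.48 and -0.69, and Olfr1518 at -0.44 (SD 0.89, 13 probes), -0.23 and -0.42. Olfr1475 followed at -0.44 (SD 0.26, 8 probes), -0.54 and -0.42, and Olfr869 at -0.43 (SD 0.43, 11 probes), -0.43 and -0.66. Their mean GC content lay between 28.1% and 34.6%, and Olfr583 and Olfr1475 had no probe well above background in both channels in Dnmt1-KO. At probes without a surrogate on any array, the WT mean of Olfr913 was -0.22 (18 probes) and that of Olfr1518 was -0.17 (9 probes), near the median receptor, and Olfr583 and Olfr1475 kept 1 probe each. The low WT means of Olfr913 and Olfr1518 thus rested in part on probes with a surrogate on at least 1 array of any genotype. In WT itself, 25 of 28 probes of Olfr913 and 12 of 13 of Olfr1518 were well above background in both channels. So was every probe of Olfr583, Olfr1475 and Olfr869. Olfr234 and Olfr94 kept every probe and their means.

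Windows at 1 or more, which occurred at 4.86% of all windows in WT, 5.43% in Eed-KO and 42.5% in Dnmt1-KO, were found at 0, 1 and 8 of the 781 receptor windows. The Eed-KO window was that of Olfr94. In Dnmt1-KO the windows of Olfr1349 (1.77, against 0.29 in WT), Olfr94 (1.51), Olfr1342 (1.25, against 0.36) and Olfr38 (1.16, against 0.49) passed. So did those of Olfr543 (1.13), Olfr691 (1.07), Olfr1341 (1.06) and Olfr632 (1.01), which lay between -0.16 and 0.02 in WT. Olfr543, Olfr632 and Olfr691 lie in the class I cluster of chromosome 7. The share of receptor windows past 1 in Dnmt1-KO, 1.02%, was far below the share of all windows.

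The Eed comparison gave a small median difference at the receptors. The median difference of Eed-KO minus WT was -0.04 at Olfr probes (quartiles -0.24 and 0.15) and -0.01 at other probes. A difference of at least 1 was found at 52 Olfr probes (0.31% of all probes) and of -1 or less at 157 (0.451%). The Olfr shares were 0.262% and 0.792%, so large falls were more frequent among receptor probes than among all probes. This did not hold at every GC content. Among promoter probes of 35 to 40% GC, falls of this size were found at 0.313% of Olfr and 0.455% of other probes. At 30 to 35% GC the shares were 1.13% and 0.941%. At least 3 in 4 probes lay higher in Eed-KO in 21 of 818 receptor genes (4.4% of all genes) and lower in 65 (6.76%). As shares of the receptor genes these are 2.57%, below that of all genes, and 7.95%, somewhat above it. The sign of the median rested on the probes used, since it was 0.0038 within 1 kb of the start and 0.0081 at probes well above background in both channels on every array of their design.

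Among genes in which at least 3 in 4 probes moved the same way, Olfr750 had the largest rise, 0.31 (SE over probes 0.04), with 31 of 35 probes higher. It was at -0.05 in WT and 0.25 in Eed-KO, and its window of 10 CpG at 0.21, 0.55 and 0.82. Olfr459 was higher by 0.25 (SE 0.04, 28 of 31 probes), Olfr1036 by 0.25 (SE 0.10, 5 of 6) and Olfr108 by 0.23 (SE 0.09, 7 of 7). On the low side, Olfr194 differed by -0.61 (SE 0.20, 7 of 7 probes lower), Olfr583 by -0.55 (SE 0.13, 6 of 6), Olfr424 by -0.45 (SE 0.11, 29 of 37) and Olfr310 by -0.44 (SE 0.11, 15 of 18). Olfr310 was the gene whose promoter probe was among the highest in WT, and its window was at 0.47 in WT and -0.24 in Eed-KO. These errors cover probe scatter on 1 array per genotype, and 1 array cannot show variation between cultures. Without surrogate values the difference was -0.35 for Olfr194 (4 probes), -0.26 for Olfr424 (21 probes) and -0.37 for Olfr310 (12 probes), and 0.29 for Olfr750 (34 probes).

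The Olfr424 difference came with a loss of input signal. At 15 of its 37 probes the Eed-KO input was at least 1 below WT, and there the level differed by -0.92 (SE 0.19). At the other 22 probes it differed by -0.13 (SE 0.08). A run of 13 neighbouring probes, at chr1:175969269-175972258 and 4125 to 1191 bases upstream of the start, had an Eed-KO input with a median 3.24 log2 units below WT (a difference of -3.24).

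The Dnmt1 comparison gave lower receptor levels in Dnmt1-KO. The median difference of Dnmt1-KO minus WT was -0.37 at Olfr probes (quartiles -0.85 and 0.05) and 0.05 at other probes, and 27.5% of Olfr probes and 53.2% of the others lay higher in Dnmt1-KO. A difference of at least 1 was found at 291 Olfr probes (10.7% of all probes) and of -1 or less at 3707 (8.16%). The Olfr shares were 1.47% and 18.7%. At least 3 in 4 probes lay lower in 383 of 818 receptor genes (9.35% of all genes) and higher in 2 (13.5%). The size depended on the scale and the background correction. The median difference was -0.06 with normexp background correction (0.10 at other probes), -0.11 with each array set to the same spread, -0.22 with the GC trend removed and -0.26 at probes well above background in both channels. It was negative in each of these.

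The largest falls were those of Olfr724, by 1.34 (difference -1.34, SE 0.10, 6 of 6 probes lower), Olfr399 (-1.13, SE 0.14, 18 of 19), Olfr91 (-1.12, SE 0.29, 13 of 15) and Olfr266 (-1.1, SE 0.13, 29 of 32). Their WT levels lay between -0.16 and 0.05 and their Dnmt1-KO levels between -1.29 and -1.18. Well above background in both channels were 1 of 6 probes of Olfr724, 11 of 19 of Olfr399, 9 of 15 of Olfr91 and 15 of 32 of Olfr266. The 2 genes with at least 3 in 4 probes higher were Olfr221 and Olfr1475. Olfr221 was at -0.07 in WT and 0.25 in Dnmt1-KO (difference 0.31, SE 0.12, 8 of 10 probes higher). Counted over all its probes, 8 of 10 were well above background in both channels in Dnmt1-KO. Olfr1475 had a difference of 0.01 (SE 0.13) and kept 1 probe without surrogate values. The falls of Olfr724, Olfr399, Olfr91 and Olfr266 without surrogate values were -1.29, -1.13, -1.05 and -1.08.

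The genes that serve odorant receptors were measured on the same arrays, and 23 of a list of 24 were found. The list holds the transduction cascade, receptor transport and the factors that control receptor choice. Their windows, scored in the same way, reached 1 in 6 genes in WT, 6 in Eed-KO and 11 in Dnmt1-KO, where 4.86%, 5.43% and 42.5% of all windows did, so 11 of 23 in Dnmt1-KO is near the share of all windows. The medians of 0.24, 0.27 and 0.79 were close to those of the windows of all genes other than receptors, 0.26, 0.21 and 0.89. The 6 in WT were mostly developmental regulators. They were Ebf1 (1.1), Ebf2 (1.02) and Ebf3 (1.27), factors with sites at many olfactory genes, the homeobox genes Lhx2 (1.08) and Emx2 (1.01), and Gnal (1.05), the G protein alpha subunit coupled to the receptors. In Dnmt1-KO the Lhx2 window was at 3.40. Adcy3, the adenylyl cyclase of the cascade, was at 0.87, 0.93 and 1.16. Omp, olfactory marker protein, was at 0.27, 0.27 and 0.69, and Cnga2, a subunit of the olfactory cyclic nucleotide-gated channel, at 0.12, -0.12 and 0.79. Over the 781 receptor windows the medians were -0.10, -0.12 and -0.30, with a median GC content of 36.1%.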

How the data were processed

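Each of 6 Agilent 2-colour scans compared Cy5-labelled IP DNA with Cy3-labelled input DNA amplified with T7 RNA polymerase, per the labels' protocols. The deposited processed signals are intensities that were background-subtracted, detrended and dye-normalised with a linear factor by Agilent Feature Extraction, per the file headers. The headers give version 9.5.3.1 for WT and Eed-KO and 10.1.1.1 for Dnmt1-KO, whereas the submitters' processing notes list 9.5.3.1 for every sample. The authors' deposited value table holds log10 ratios, which equal the scanner log10 ratios plus a constant for each array (to within 0.001 at 99.0% of probes or more). The deposited scans also carry other columns, flags of 0 or 1 per spot, per the file headers.

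Levels were log2 of Cy5 over Cy3 processed signal, centred on the median of non-control probes. Probes with an outlier flag on any array of their design were left out (333 of all). Gene means used at least 6 probes. Genes were named by a rule, the 5 highest and 5 lowest WT means, the 4 highest and 4 lowest differences with 3 in 4 probes on that side, and the 5 highest WT probes with a neighbour at 0.5 or more. Genes added for their windows, promoter CpG or input were chosen after their values were seen. Members, lists and rules were chosen with earlier results of these data known. Olfr symbols matched the RefSeq gene table (GRCm38.p6) for 840 of 875 genes, and 34 symbols named 2 genes. Olfr membership by the older annotation of the WT and Eed-KO files was tried as an alternative, with 19823 probes in common. The values are limited by the number of arrays. The code was tested on simulated data. Python 3.11.15, numpy 2.4.6, pandas 2.3.3, R 4.3.3 and limma 3.58.1 (normexp, offset 50) were used.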

Additional observations from a re-analysis of the deposited data

How the results depend on the processing

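Of the choices tried, each series of values that follows gives the Olfr median level in WT, Eed-KO and Dnmt1-KO, the median differences Eed-KO minus WT and Dnmt1-KO minus WT, and the numbers of Olfr probes at 1 or more in WT, Eed-KO and Dnmt1-KO. As reported they were -0.17, -0.21, -0.53, -0.039, -0.37, 14, 17, 134. Normexp background correction gave -0.21, -0.26, -0.29, -0.054, -0.062, 3, 13, 65. Centring on the mode gave -0.12, -0.18, -0.45, -0.059, -0.33, 15, 19, 178. Setting the 3 arrays of a design to a common median absolute deviation, the geometric mean of their own, gave -0.23, -0.27, -0.32, -0.029, -0.11, 49, 48, 31. Removing the GC trend gave -0.089, -0.11, -0.30, -0.017, -0.22, 19, 29, 238. Leaving out probes whose input was not well above background gave -0.13, -0.13, -0.51, -0.0021, -0.39, 4, 13, 82. Probes within 1 kb of the start gave -0.14, -0.15, -0.57, 0.0038, -0.43, 4, 9, 50. Array design 1 alone gave -0.17, -0.22, -0.57, -0.042, -0.40, 7, 3, 76. Array design 2 alone gave -0.17, -0.21, -0.50, -0.037, -0.34, 7, 14, 58. Without chromosomes 2 and 7 the values were -0.17, -0.20, -0.51, -0.033, -0.35, 8, 15, 88. With 1 value per gene they were -0.19, -0.24, -0.61, -0.049, -0.42, 0, 0, 0. Probes well above background in both channels on every array gave -0.12, -0.11, -0.38, 0.0081, -0.26, 4, 13, 82. Probes outside the gene gave -0.18, -0.24, -0.52, -0.052, -0.35, 11, 9, 103. Probes without a surrogate signal on any array gave -0.15, -0.18, -0.53, -0.025, -0.37, 8, 16, 116. At 1.5-fold the probe counts were 115, 155, 442. At 3-fold the probe counts were 1, 1, 33. The selections by both channels well above background, by position outside the gene and by surrogate signals, and the removal of probes sharing 20 bases, were added after seeing the data. The sign of every median held under all settings run, except Eed-KO minus WT within 1 kb of the start and at probes well above background in both channels. The authors' value table, the older annotation, probes present once only, flagged probes kept and probes sharing 20 bases left out kept every median within 0.01 and each count within 1 probe. Of the Olfr medians and probe counts under these alternatives, 64 stayed the same, 84 moved and 2 changed sign. The same meant within the 95% interval over genes for a median and within 1.5-fold for a count. Of the values tried for named genes and the Olfr94 window, 187 stayed within the spread and 52 moved. For these named genes a change of sign was counted only for differences from WT, where 0 were found, and not for levels. The cause of each shift was not tested. Dim probes limit the Dnmt1-KO values, since 44.5% of Olfr probes were well above background in both channels there. Leaving out a replicate was not possible, with 1 array per genotype and design. No paired analysis was possible because the result comes from no test and each group has 1 array.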

Other observations

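The input channel, which carries no antibody signal, held differences between Eed-KO and WT at a few receptor loci. Over the 818 genes with at least 6 probes, the median input difference of a gene, Eed-KO minus WT in log2 units relative to the array median, ran from -0.46 to 0.70. It was -0.4 or less in 4 receptor genes (0.489%, against 0.438% of other genes) and 0.4 or more in 10 (1.22%, against 1.73%). These shares were near or below those of other genes, so such differences were not particular to the receptors. On chromosome 16 the neighbours Olfr164, Olfr165, Olfr166 and Olfr167 were at -0.28, -0.45, -0.46 and -0.43, and the next genes Olfr168, Olfr169 and Olfr171 at 0.17, 0.43 and 0.14. The IP differed by -0.61, -0.60, -0.43 and -0.45 at the former, and the median level by -0.17, -0.04, 0.01 and -0.13. Of the 10 genes at 0.4 or more, 5 were the X-linked neighbours Olfr1320 to Olfr1324, at 0.41 to 0.51 in the input and 0.38 to 0.56 in the IP. Olfr1415 on chromosome 1 was at 0.70 in the input and 0.68 in the IP, and its neighbour Olfr1416 at -0.23 and -0.08.

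The sharpest such place lay upstream of Olfr424 on chromosome 1. Runs of at least 4 neighbouring probes of a gene with the Eed-KO input 1.5 or more below WT occurred once among the receptors, at the 13 probes at chr1:175969269-175972258, and 2 times among all other genes, at Mid1 on the X chromosome (16 probes) and at Gm136 on chromosome 4 (5 probes). Median input differences were -3.24 upstream of Olfr424, -2.72 at Mid1 and -3.26 at Gm136. The adjacent receptor Olfr244 had a median input difference of -0.43. With 1 array of each genotype, a difference between the cells and a difference between the hybridisations cannot be told apart, and no cause was tested.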
